A study of Mus musculus with 9 samples.

Results

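Glycolysis splits glucose into pyruvate, and the fate of pyruvate divides the pathway's output between lactate and the mitochondrion. A set of 34 genes was examined: glucose transporters, the enzymes of the glycolytic steps, lactate dehydrogenase and lactate transporters, and the pyruvate dehydrogenase complex with the kinases that switch it off. The genes were listed by name for their place in the pathway, with earlier results of these data known. Each was read from the probe set (the group of probes that measures a transcript) with the highest mean signal. Of the 34 genes, 31 were matched to a probe set that carries no other gene's symbol, out of 18194 genes measured in all. No value is given for Gpi1, Pfkfb1 and Eno1, which had no such match.

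The study measured RNA on 9 Affymetrix mouse arrays, 3 in each of 3 groups, all labelled with the mouse strain C57BL/6. Epiblast stem cells (EpiSCs) are pluripotent cells like those of the post-implantation epiblast, a state known as primed. They were grown with Activin A (20 ng/ml) and bFGF (12 ng/ml) and received either vehicle or IWP2, which blocks Porcupine, the enzyme that acylates Wnt proteins for their secretion. Embryonic stem cells (ESCs) represent the earlier, naive state and were grown with LIF (1000 U/ml) and Wnt3a (250 ng/ml), so cell type and culture medium cannot be told apart in comparisons with ESCs. The labels call the 3 arrays of a group biological replicates and do not name the cell lines or their number, so a p-value covers the spread between these cultures. How much IWP2 was used, and for how long, the labels do not say.

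As background, hexokinase and phosphofructokinase control the entry of glucose carbon into glycolysis. Lactate dehydrogenase turns pyruvate into lactate and restores NAD+, and proton-coupled monocarboxylate transporters carry lactate out of the cell. Pyruvate that is not turned into lactate enters the mitochondrion through the pyruvate carrier and is converted to acetyl-CoA by the pyruvate dehydrogenase complex. Primed pluripotent cells are known for a mainly glycolytic metabolism, and naive cells for using mitochondrial respiration as well.

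The labels were checked against marker genes. All 8 naive markers had a mean above 5.24, the median log2 value of all probe sets, in ESCs, against 2 of 8 in vehicle EpiSCs and 1 of 8 with IWP2. All 8 primed markers were above it in both EpiSC groups, and 6 of 8 in ESCs. The summed linear signal of the primed markers was 24280 to 25208 for vehicle, 10898 to 11719 for IWP2 and 793 to 832 for ESCs. At a limma adjusted p under 0.05, 5 of the 8 were lower with IWP2 (62.5%, against 16.9% of all genes). Sox4 (0.32) and Zic2 (0.69) were higher (25%, against 16.6%). Definitive endoderm markers separated the EpiSC groups: all 6 were above that median in vehicle cells and 1 of 6 with IWP2, and their summed signal was 4547 to 4807 for vehicle, 121 to 135 for IWP2 and 163 to 174 for ESCs. Fibroblast and feeder markers summed to 583 to 814, 386 to 450 and 193 to 201 in the same order, but went both ways. With IWP2, 4 of the 8 were called lower (50%, against 16.9% of all genes). Dcn (0.78) and Thy1 (0.72) were called higher (25%, against 16.6%). In ESCs against vehicle cells, 5 were lower (62.5%, against 27.9%) and Thy1 (0.55) was higher (12.5%, against 38.7%). The part that these cell types had in the differences of the glycolysis genes was not tested, and in bulk RNA fewer cells of a type and less RNA per cell cannot be told apart. The Y-linked genes Eif2s3y, Kdm5d and Uty lay between 7.38 and 9.88 on all EpiSC arrays and between 2.05 and 2.63 on all ESC arrays. The X-linked gene Xist lay between 4.94 and 5.35 on vehicle arrays, 6.38 and 6.99 with IWP2, and 9.01 and 9.15 in ESCs. The sex-chromosome signal thus differed between ESCs and EpiSCs, together with cell type and medium. These cannot be told apart in comparisons with ESCs.

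ESCs differed from vehicle EpiSCs in both directions. Of the 31 genes, limma called 18 lower (58.1%, against a background of 27.9% of all genes) and 11 higher (35.5%, against 38.7%) at an adjusted p under 0.05, so that 29 were called (93.5%, against 66.6%). Slc2a3 and Hk2 were not called. Differences of at least 2-fold were found for 5 higher genes (16.1%, against 6.86%) and 5 lower (16.1%, against 9.63%). Among the glycolytic genes, the phosphofructokinase gene Pfkp was 10.3-fold higher in ESCs, and Hk1, Pfkfb2 and Pgam2 were higher by less than 2-fold. The monocarboxylate transporter gene Slc16a3 and the regulatory enzyme gene Pfkfb3 were the genes lower by the most, 4.88-fold and 4.05-fold. The median difference of the 31 genes was -0.23, and that of all genes 0.12. The shares and medians of all genes, here and below, are not matched for signal, and many of the 31 genes are bright. In a fit of only the 11007 genes at or above the median signal, 4193 were called higher and 4551 lower. The median difference of those genes was -0.02. The part of signal level in the members' shares was not tested. For 27 of the 31 genes the arrays of the 2 groups did not overlap (87.1%, against 71.1% of all genes).

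With IWP2, most of the genes that were called rose. Limma called 16 of 31 (51.6%, against 33.5% of all genes): 11 higher (35.5%, against 16.6% of all genes) and 5 lower (16.1%, against 16.9%). Their median difference was 0.12, and that of all genes 0.03. In a fit of only the 11007 genes at or above the median signal, 2888 were called higher and 2957 lower. The median difference of those genes was 0.005. The aldolase gene Aldoc rose 2.66-fold and was the only member that changed by at least 2-fold, against 0.901% of all genes that rose and 2.81% that fell by as much. The falls were those of Pfkfb2, Pfkfb3, Pfkfb4, Ldha and Slc16a1. The arrays of vehicle and IWP2 did not overlap for 19 genes (61.3%, against 47.0%).

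Against IWP2-treated EpiSCs, 25 genes were called (80.6%, against 62.1%). ESCs had 17 lower genes (54.8%, against 26.9%) and 8 higher (25.8%, against 35.2%), with a median of -0.26 against 0.10 for all genes. At least 2-fold higher were 2 genes (6.45%, against 7.87%), and 7 were at least 2-fold lower (22.6%, against 9.40%). The arrays did not overlap for 28 genes (90.3%, against 67.1%). Of the 11007 genes at or above the median signal, fitted alone, 4322 were called higher and 4512 lower, with a median of -0.002. The comparisons share arrays, so their counts are not independent. In 14 of the 31 genes the mean was highest with IWP2, and in 10 it was highest in ESCs.

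**Figure D1:**
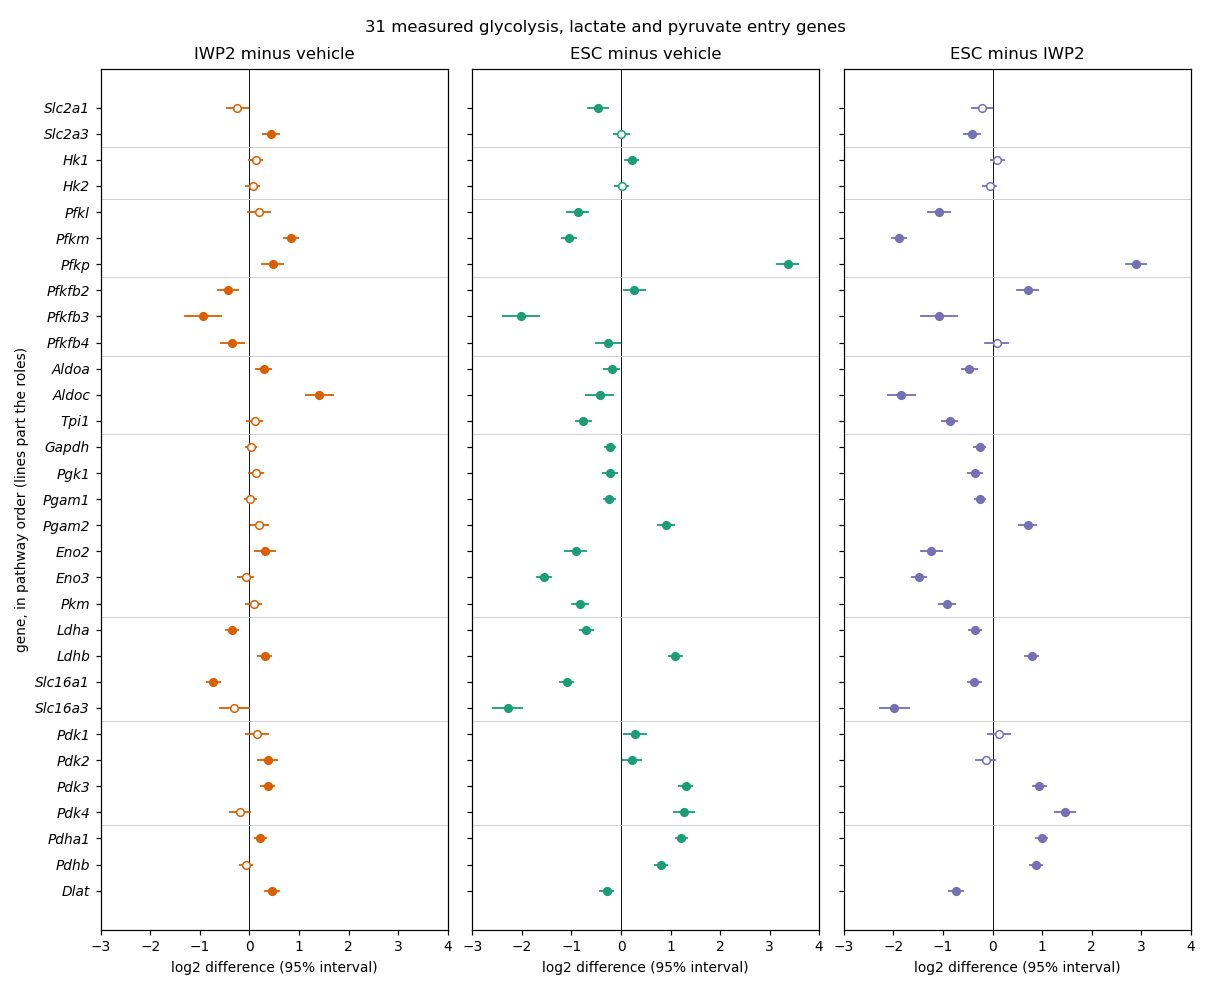
Log2 differences of the 31 measured genes (rows, in pathway order) in the 3 comparisons (panels), with 95% intervals from limma. Filled points were called at an adjusted p under 0.05 and open points were not. Pfkp lies far to the right in both ESC panels (3.36 and 2.90), while most other glycolytic genes lie left of 0 there.

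Glucose enters these cells through facilitative transporters. Slc2a1, the gene for the widespread transporter GLUT1, had a mean log2 signal of 12.51 ± 0.205 in vehicle EpiSCs, 12.26 ± 0.034 with IWP2 and 12.05 ± 0.041 in ESCs (SD, n = 3). It was lower in ESCs than in vehicle cells (-0.46 ± 0.092 SE, limma adjusted p = 0.0015). Its difference with IWP2 was -0.25 (limma adjusted p = 0.0662) and became -0.35 and called without vehicle replicate 2. Its other 2 probe sets were called lower with IWP2 (-0.32 and -0.36), as was the mean of the 3 (-0.31). Between ESCs and IWP2 cells it was -0.21 (limma adjusted p = 0.0679), and called without vehicle replicate 2 or 3, the difference remaining -0.21.

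Slc2a3, the gene for the high-affinity transporter GLUT3, was called with IWP2 and not between ESCs and vehicle cells. It stood at 13.25 ± 0.132 in vehicle cells, rose to 13.68 ± 0.048 with IWP2 and was at 13.26 ± 0.030 in ESCs. The rise was 0.43 ± 0.071 (limma adjusted p = 0.00127) and ESCs were lower than IWP2 cells (-0.42). The probe set used was bright and of a type that can bind related transcripts. Without that type the rise with IWP2 was 1.02 and the difference between ESCs and IWP2 cells -0.79. ESCs and vehicle cells differed by 0.01 (95% interval -0.15 to 0.17), and by 0.23, called, without that type.

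Hexokinases trap glucose as glucose 6-phosphate. Hk2, the inducible isoform, was called in none of the 3 comparisons, with differences of -0.06 to 0.07. Hk1, the constitutive isoform, was slightly higher in ESCs than in vehicle cells (0.22 ± 0.058, limma adjusted p = 0.00758), and by 0.35 when quantile normalization was repeated.

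Phosphofructokinase commits sugar to glycolysis and is built from liver (Pfkl), muscle (Pfkm) and platelet (Pfkp) subunits. The Pfkp signal was 7.64, 7.40 and 7.74 on the vehicle arrays, 8.11, 8.15 and 7.91 with IWP2, and 10.93, 10.96 and 10.97 in ESCs (log2). All ESC arrays were far above every EpiSC array, and the IWP2 arrays lay above the vehicle arrays without overlap. ESCs exceeded vehicle cells by 3.36 ± 0.093 (SE, limma adjusted p = 6.85e-10) and IWP2 cells by 2.90 ± 0.093, and the gene rose by 0.47 with IWP2 (limma adjusted p = 0.0036). The other 2 Pfkp probe sets were also higher in ESCs than in vehicle cells, by 2.92 and 1.57. Between IWP2 and vehicle cells they disagreed, with -0.05 (not called) and 0.67 (called).

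In ESCs the muscle and liver subunits went the other way. Pfkm read 8.55, 8.47 and 8.65 in vehicle cells, 9.33, 9.41 and 9.44 with IWP2 and 7.51, 7.52 and 7.48 in ESCs. The 3 groups did not overlap, with IWP2 cells highest and ESCs lowest. Pfkm rose by 0.84 ± 0.062 with IWP2 (limma adjusted p = 5.96e-06) and was lower in ESCs than in vehicle cells by 1.05 on the log2 scale, a 2.07-fold difference. Pfkl read 8.41, 8.13 and 8.43 in vehicle cells, 8.68, 8.52 and 8.38 with IWP2 and 7.43, 7.51 and 7.41 in ESCs. The EpiSC groups overlapped, and ESCs were below both. Pfkl differed by -0.88 ± 0.098 between ESCs and vehicle cells and by -1.08 between ESCs and IWP2 cells, each -0.45 as the mean of its 3 probe sets. The dimmest of these, at 5.48 to 5.73, had the opposite sign, with 0.06 (not called) and 0.25 (called).

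The Pfkfb genes encode the bifunctional enzymes that make and remove fructose 2,6-bisphosphate, the strongest activator of phosphofructokinase. Pfkfb3, the isoform with the highest kinase activity, read 7.49, 7.31 and 7.80 in vehicle cells, 6.61, 6.77 and 6.42 with IWP2 and 5.80, 5.24 and 5.51 in ESCs. The groups formed 3 separate steps. It fell with IWP2 (-0.93 ± 0.160, limma adjusted p = 0.00156) and ESCs were lower than vehicle cells (-2.02 ± 0.160, limma adjusted p = 1.81e-06). A second, dim Pfkfb3 probe set lay at 4.29 to 4.40 in the 3 groups. As the mean of both probe sets the differences were -0.46 and -0.95.

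Pfkfb4, the isoform linked to hypoxia and germ cells, read 6.67, 6.86 and 6.58 in vehicle cells, 6.30, 6.40 and 6.36 with IWP2 and 6.22, 6.51 and 6.59 in ESCs. Its ESC arrays overlapped with those of both EpiSC groups. It fell by 0.35 with IWP2 (limma adjusted p = 0.0262), a call lost without vehicle replicate 1 (-0.37), vehicle replicate 2 (-0.27), IWP2 replicate 1 (-0.32) or IWP2 replicate 3 (-0.35). The difference between ESCs and vehicle cells was -0.26 (limma adjusted p = 0.0466). That call remained only without vehicle replicate 3 or ESC replicate 3, and the difference was -0.15 to -0.30 without each of the other arrays. With quantile normalization repeated it was -0.11, and it was also not called after cyclic loess (-0.22) or median centring (-0.23).

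Pfkfb2, known from heart, read 5.47, 5.61 and 5.46 in vehicle cells, 5.10, 5.02 and 5.12 with IWP2 and 5.94, 5.83 and 5.57 in ESCs. IWP2 arrays were the lowest, and the ESC and vehicle arrays overlapped. It fell by 0.44 with IWP2 (-0.24 with an offset of 32 on the linear signal), or gave -0.14, not called, as the mean of 4 probe sets. ESCs exceeded IWP2 cells by 0.71 (0.41 with that offset or as that mean) and vehicle cells by 0.27 (0.17 with the offset). The call against vehicle was lost after cyclic loess (0.22), and without vehicle replicate 1 (0.25), vehicle replicate 3 (0.24), ESC replicate 1 (0.19) or ESC replicate 2 (0.25).

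Aldolase cuts fructose 1,6-bisphosphate into triose phosphates. Aldoc, the isoform typical of brain, read 8.59, 8.27 and 8.87 on the vehicle arrays, 9.98, 10.00 and 9.99 with IWP2 and 8.14, 8.18 and 8.13 in ESCs. IWP2 arrays stood above all others, and the vehicle arrays were the most spread. The rise with IWP2 was 1.41 ± 0.122 (limma adjusted p = 1.96e-05), and ESCs were 1.84 below IWP2 cells. A dim second probe set showed little change, and as the mean of both the rise was 0.78 and the ESC minus IWP2 difference -1.08. ESCs were below vehicle cells by 0.43 on the log2 scale (-0.43, limma adjusted p = 0.0114), or -0.28 without vehicle replicate 3.

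Aldoa, the main aldolase of growing cells, read 12.74, 12.59 and 12.82 in vehicle cells, 12.97, 13.06 and 12.98 with IWP2 and 12.49, 12.56 and 12.54 in ESCs. The order was the same as for Aldoc, with smaller steps: 0.28 with IWP2 (limma adjusted p = 0.0099) and -0.47 between ESCs and IWP2 cells. The difference of -0.19 between ESCs and vehicle cells (limma adjusted p = 0.0316) was -0.14 to -0.20 and not called when vehicle replicate 1 or 3 or any single ESC array was left out, and -0.16 and not called after median centring. Tpi1, which interconverts the triose phosphates, was lower in ESCs by 0.76 (-0.76 ± 0.067 against vehicle cells, and -0.86 against IWP2 cells) and was not called with IWP2 (0.10).

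In lower glycolysis, the steps from glyceraldehyde phosphate to pyruvate that yield ATP, 6 of 7 measured genes were lower in ESCs than in vehicle cells (85.7%, against 27.9% of all genes) and 1 was higher (14.3%, against 38.7%). Eno3, the muscle enolase, read 7.66, 7.65 and 7.78 in vehicle cells, 7.72, 7.60 and 7.55 with IWP2 and 6.17, 6.18 and 6.07 in ESCs. The EpiSC groups overlapped and the ESC arrays lay well below (-1.55 ± 0.066 against vehicle, limma adjusted p = 1.56e-08, and -1.48 against IWP2). Pkm, the pyruvate kinase gene, fell from 11.79 ± 0.037 in vehicle cells to 10.96 ± 0.028 in ESCs (SD, n = 3), a difference of -0.83 ± 0.069 (SE), and differed by 0.08 with IWP2 (not called).

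Gapdh, Pgk1 and Pgam1 encode the enzymes of the steps between triose phosphate and enolase. Gapdh, read from the array's own control probe sets, differed by -0.23 ± 0.048 between ESCs and vehicle cells, Pgk1 by -0.22 ± 0.062 and Pgam1 by -0.23 ± 0.049, with limma adjusted p of 0.00225, 0.0113 and 0.00193. With IWP2 these genes differed by 0.03, 0.13 and 0.02 and were not called. The other 2 Pgk1 probe sets gave -0.14 and -0.12 between ESCs and vehicle cells, neither called. Eno2, the neuronal enolase, was near the floor of the array, where the lower quartile of all values was 3.72. It stood at 4.09 in vehicle cells, 4.40 with IWP2 and 3.17 in ESCs, and its differences from ESCs of -0.92 and -1.23 were -0.26 and -0.37 once 32 was added to the linear signal. Its rise of 0.32 with IWP2 (0.12 with the offset) was not called after cyclic loess (0.26), or without vehicle replicate 2 (0.21), IWP2 replicate 1 (0.32) or IWP2 replicate 3 (0.29).

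Pgam2, the muscle phosphoglycerate mutase, was the exception and was higher in ESCs, at 6.72 ± 0.026 against 5.81 ± 0.155 in vehicle cells and 6.01 ± 0.032 with IWP2. The differences were 0.91 and 0.71. The value with IWP2, 0.20, was not called (limma adjusted p = 0.067), and became 0.29 and called without vehicle replicate 1.

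**Figure D2:**
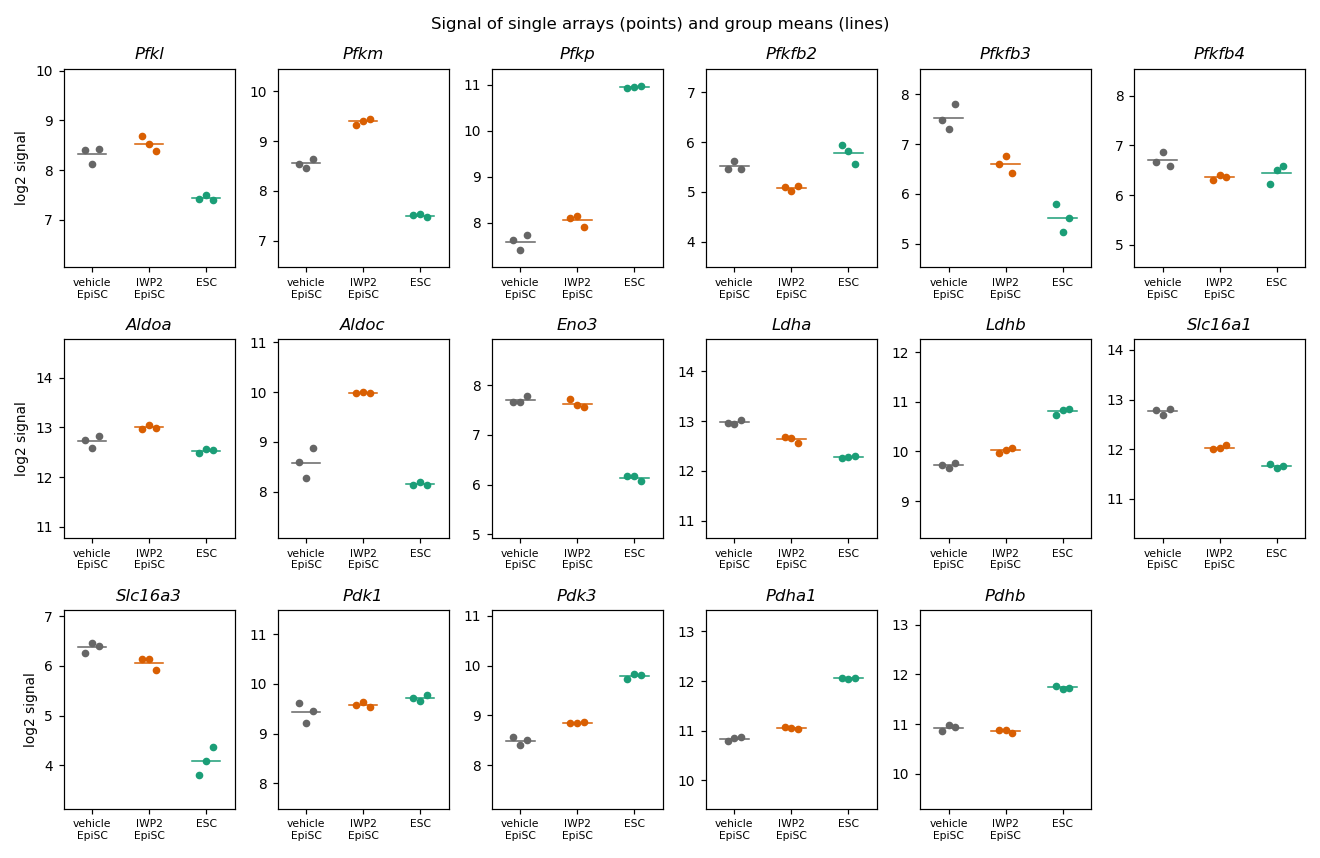
Log2 signal of each array (points) and group mean (lines) for the 17 genes given array by array, with vehicle EpiSCs in grey, IWP2-treated EpiSCs in orange and ESCs in green. Each panel has its own axis range of at least 4 log2 units. Pfkp is high in ESCs alone, at 10.93 to 10.97, and Aldoc is highest with IWP2, at 9.98 to 10.00.

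Lactate genes separated the groups in steps. Ldha, the subunit that favours the reduction of pyruvate to lactate, read 12.96, 12.95 and 13.03 in vehicle cells, 12.69, 12.65 and 12.56 with IWP2 and 12.27, 12.28 and 12.30 in ESCs. Ldhb, the subunit typical of tissues that take up and oxidise lactate, read 9.73, 9.66 and 9.77, then 9.97, 10.04 and 10.07, then 10.74, 10.84 and 10.86. The 3 groups did not overlap for either gene, and the order of the groups was reversed between them. Ldha fell by 0.35 ± 0.055 with IWP2 (limma adjusted p = 0.000974) and was lower in ESCs than in vehicle cells (-0.70, limma adjusted p = 1.8e-06). Ldhb rose by 0.31 ± 0.059 with IWP2 (limma adjusted p = 0.00301) and was higher in ESCs than in vehicle cells (1.09, limma adjusted p = 9.18e-08). All 4 Ldhb probe sets agreed, with 0.30 to 0.38 for IWP2 and 1.04 to 1.14 for ESCs minus vehicle.

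The 2 lactate transporter genes of the set were lowest in ESCs. Slc16a1, the gene for the monocarboxylate transporter MCT1, read 12.79, 12.69 and 12.81 in vehicle cells, 12.01, 12.02 and 12.08 with IWP2 and 11.71, 11.62 and 11.67 in ESCs. Again the 3 groups formed separate steps, with a fall of 0.73 ± 0.057 with IWP2 (limma adjusted p = 9.3e-06) and a difference of -1.10 between ESCs and vehicle cells. ESCs were below IWP2 cells by 0.37 (-0.37), and by -0.22 as the mean of probe sets. Slc16a3, the gene for MCT4, which exports lactate from strongly glycolytic cells, read 6.26, 6.46 and 6.41, then 6.15, 6.14 and 5.92, then 3.80, 4.10 and 4.36 in ESCs. The ESC arrays were close to the floor. They were below the vehicle cells (-2.29 ± 0.130 SE, limma adjusted p = 1.37e-07) and the IWP2 cells (-1.98), and with an offset of 32 these were -1.23 and -1.01. Its difference with IWP2 was -0.31 (limma adjusted p = 0.0992), which was called without ESC replicate 1 or 3 at an unchanged difference.

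The accessory proteins that bring these transporters to the membrane are not among the 34 genes and were read from a list of other glycolysis and lactate genes. Emb, the gene for embigin, was at 12.96 in vehicle cells, 11.04 with IWP2 and 9.11 in ESCs. It fell by 1.93 ± 0.057 with IWP2 (limma adjusted p = 1.09e-08) and was lower still in ESCs (-3.85 ± 0.057 against vehicle cells). Bsg, the gene for basigin, fell by 0.45 with IWP2 and was lower in ESCs by 0.79 (-0.79 ± 0.077). Both accessory genes were lowest in ESCs. Other transporter genes of the same family in that list differed from this order: Slc16a8 was higher in ESCs than in vehicle cells (0.40, limma adjusted p = 0.00201), and Slc16a7, at the floor, was not called (0.25). These 2 were chosen after their values were seen.

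The sequence before the transcription start is shown for the lactate genes that were lower in ESCs (Ldha, Slc16a1, Slc16a3) and for 2 genes that were higher (Ldhb, Pfkp). Each line holds the 210 bases before the start on the gene's strand, 5′ to 3′, from RefSeq on mouse assembly GRCm38.p6; for Ldha the upstream of 2 starts was used. Capitals mark ACGTG, the core of the hypoxia response element, on either strand. A CACGTG, the E-box letters, holds an ACGTG on both strands and counts as 2. The windows are Ldha chr7:46845594-46845803 (+), Slc16a1 chr3:104638454-104638663 (+), Slc16a3 chr11:120948857-120949066 (+), Ldhb chr6:142507958-142508167 (-) and Pfkp chr13:6648772-6648981 (-).
Ldha: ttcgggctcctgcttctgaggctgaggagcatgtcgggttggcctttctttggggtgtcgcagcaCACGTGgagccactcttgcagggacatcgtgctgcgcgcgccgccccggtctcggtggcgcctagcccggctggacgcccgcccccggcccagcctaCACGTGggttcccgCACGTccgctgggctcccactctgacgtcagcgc
Slc16a1: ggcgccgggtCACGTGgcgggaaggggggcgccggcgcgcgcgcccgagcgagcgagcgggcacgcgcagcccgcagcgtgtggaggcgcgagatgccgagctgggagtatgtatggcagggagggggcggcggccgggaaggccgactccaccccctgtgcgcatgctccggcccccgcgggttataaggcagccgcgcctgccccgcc
Slc16a3: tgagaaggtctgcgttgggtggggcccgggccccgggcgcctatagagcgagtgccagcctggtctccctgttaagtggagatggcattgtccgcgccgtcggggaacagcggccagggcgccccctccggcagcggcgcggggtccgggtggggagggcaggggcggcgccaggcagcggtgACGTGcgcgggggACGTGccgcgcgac
Ldhb: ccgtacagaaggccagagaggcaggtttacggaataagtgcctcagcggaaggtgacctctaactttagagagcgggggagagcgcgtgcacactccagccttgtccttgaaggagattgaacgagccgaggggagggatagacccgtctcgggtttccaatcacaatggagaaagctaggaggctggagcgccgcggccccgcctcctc
Pfkp: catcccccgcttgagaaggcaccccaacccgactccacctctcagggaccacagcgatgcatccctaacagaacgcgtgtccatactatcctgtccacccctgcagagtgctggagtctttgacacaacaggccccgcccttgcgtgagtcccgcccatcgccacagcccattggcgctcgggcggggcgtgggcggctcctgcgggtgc

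The Ldha stretch held 5 matches, with CACGTG starting 145 and 48 bases before the start and a further ACGTG core at 34. Slc16a1 held CACGTG at 200 bases, and Slc16a3 held ACGTG at 27 and 14 bases. Neither motif was found in the stretches of Ldhb and Pfkp. Over the members the motif occurred in genes of both directions: ACGTG was in a window of 12 of the 18 genes called lower in ESCs than in vehicle cells and of 5 of the 11 called higher (Hk1, Pfkfb2, Pdk2, Pdk3 and Pdhb). Over windows of 300 bases (250 before the start and 50 after), ACGTG occurred in 22 of 44 windows of the measured genes (50%), against 19.6% of all 32851 windows and 20.9% of the 21262 windows of protein-coding genes. CACGTG occurred in 6 of 44 (13.6%), against 7.15% and 7.84%. Counted per gene, ACGTG was in a window of 18 of 30 measured genes (60%), against 21.8% of all 27025 genes. Windows were found for 30 of the 31 genes, all but Slc2a3. These are matches of letters, and binding was not measured.

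Pyruvate dehydrogenase kinases phosphorylate the complex and switch it off. Pdk3 read 8.56, 8.41 and 8.50 in vehicle cells, 8.85, 8.86 and 8.86 with IWP2 and 9.74, 9.84 and 9.81 in ESCs. The groups did not overlap and rose in steps, by 0.36 ± 0.057 with IWP2 (limma adjusted p = 0.000936) and 1.31 ± 0.057 between ESCs and vehicle cells (limma adjusted p = 2.03e-08). Pdk4, the starvation-responsive kinase, was at 3.68 in vehicle cells, 3.48 with IWP2 and 4.95 in ESCs, all below the median of all probe sets. It was higher in ESCs than in vehicle cells by 1.27, or by 0.49 with an offset of 32, and than in IWP2 cells by 1.46 (0.54 with the offset). The difference of -0.20 with IWP2 was not called, and became -0.30 and called without vehicle replicate 2.

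Pdk1, a known target of the hypoxia factor HIF1, read 9.62, 9.21 and 9.46 in vehicle cells, 9.58, 9.64 and 9.53 with IWP2 and 9.71, 9.65 and 9.77 in ESCs. The probe sets of this gene disagreed. The one used gave 0.28 for ESCs minus vehicle (limma adjusted p = 0.0265), a call lost with array weights (0.21), and without vehicle replicate 2 (0.17), ESC replicate 1 (0.28) or ESC replicate 3 (0.25). Of the other 3, 2 gave 0.25 and 0.41 and 1 gave -2.13, falling from 5.32 to 3.19, so that the mean of the 4 was -0.30 and called in the opposite direction. Pdk1 is counted among the higher genes by the probe set used, and its direction is not settled. Pdk2 lay at 2.86 to 3.23 in the 3 groups, at the floor, and its differences of 0.36 with IWP2 and 0.23 in ESCs were 0.07 and 0.04 and not called with an offset of 32. The ESC difference was 0.11 with quantile normalization repeated and 0.09 after cyclic loess, not called in either. It was also not called without vehicle replicate 2 (0.17), vehicle replicate 3 (0.21) or ESC replicate 2 (0.16).

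The pyruvate dehydrogenase complex itself was higher in ESCs in its first component. Pdha1, the catalytic alpha subunit, read 10.80, 10.85 and 10.88 in vehicle cells, 11.07, 11.06 and 11.04 with IWP2 and 12.06, 12.04 and 12.06 in ESCs. Pdhb, its beta partner, read 10.87, 10.99 and 10.94, then 10.88, 10.87 and 10.82, then 11.77, 11.72 and 11.73. ESC arrays stood above all EpiSC arrays for both subunits. The differences between ESCs and vehicle cells were 1.21 ± 0.049 for Pdha1 (limma adjusted p = 1.13e-08) and 0.81 ± 0.054 for Pdhb (limma adjusted p = 4.73e-07). With IWP2, Pdha1 rose by 0.22 (limma adjusted p = 0.00766) and Pdhb differed by -0.07 (not called).

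Dlat, the second component, which passes the acetyl group to coenzyme A, had another order by the probe set used. It was highest with IWP2, at 10.11 ± 0.057, and lower in vehicle cells, at 9.66 ± 0.069, and in ESCs, at 9.37 ± 0.060. The rise with IWP2 was 0.45 (limma adjusted p = 0.00038) and the difference between ESCs and IWP2 cells -0.74, or 0.29 and -0.41 as the mean of 3 probe sets. Between ESCs and vehicle cells the value was -0.29, and -0.11 and not called as that mean. The probe sets disagreed: 1 at 7.07 to 7.36 went against the other 2. It gave 0.29, called, between ESCs and IWP2 cells. Its values of -0.07 with IWP2 and 0.22 between ESCs and vehicle cells were not called. Mpc1, a subunit of the mitochondrial pyruvate carrier and not among the 34 genes, was higher in ESCs than in vehicle cells by 2.53 ± 0.076 (9.78 against 7.25, limma adjusted p = 1.22e-09) and fell by 0.38 with IWP2.

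Of the 31 genes, 3 are X-linked: Pdha1, Pdk3 and Pgk1. Over the 617 X-linked genes measured, the median difference between ESCs and vehicle cells was 0.32 and 58.7% were called higher, against 0.11 and 38.0% of 17402 autosomal genes. Between IWP2 and vehicle cells the medians were 0.04 and 0.03. The differences of Pdha1 and Pdk3 exceeded the X-linked median, that of Pgk1 was below it, and the autosomal Pdhb was also higher in ESCs. The part of the sex chromosomes in these values was not tested.

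Isoform use was compared through the ratio of 2 genes on the same array, since signals of different probe sets cannot be set against each other directly. For 15 pairs and 3 comparisons, 45 changes of a ratio were computed. The groups did not overlap for 39 of them, each with an exact two-sided permutation p of 0.1, the smallest that 3 against 3 arrays allow (0.115 adjusted over the 45), so none can pass 0.05. The largest changes were within phosphofructokinase. The log2 ratio of Pfkp over Pfkl was 4.24 ± 0.058 (SE) higher in ESCs than in vehicle cells, and that of Pfkp over Pfkm 4.41 ± 0.092 higher. As means of probe sets these were 3.07 and 3.67.

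Ldhb over Ldha rose by 0.65 ± 0.059 with IWP2 and by 1.79 ± 0.059 between vehicle cells and ESCs, a 3.46-fold change of the ratio. Aldoc over Aldoa rose by 1.13 ± 0.090 with IWP2 (0.53 as means of probe sets) and was 1.36 lower in ESCs than with IWP2 (-1.36). Slc2a3 over Slc2a1 rose by 0.67 ± 0.053 with IWP2, and by 1.27 without the probe sets that can bind related transcripts. Pfkm over Pfkl rose by 0.64 ± 0.110 with IWP2. Slc16a3 over Slc16a1 was lower in ESCs than in vehicle cells (-1.19 ± 0.178), and -0.14 with an offset of 32. Hk2 over Hk1 changed least among the enzyme isoforms compared between IWP2 and vehicle cells, by -0.05 ± 0.066.

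**Figure D3:**
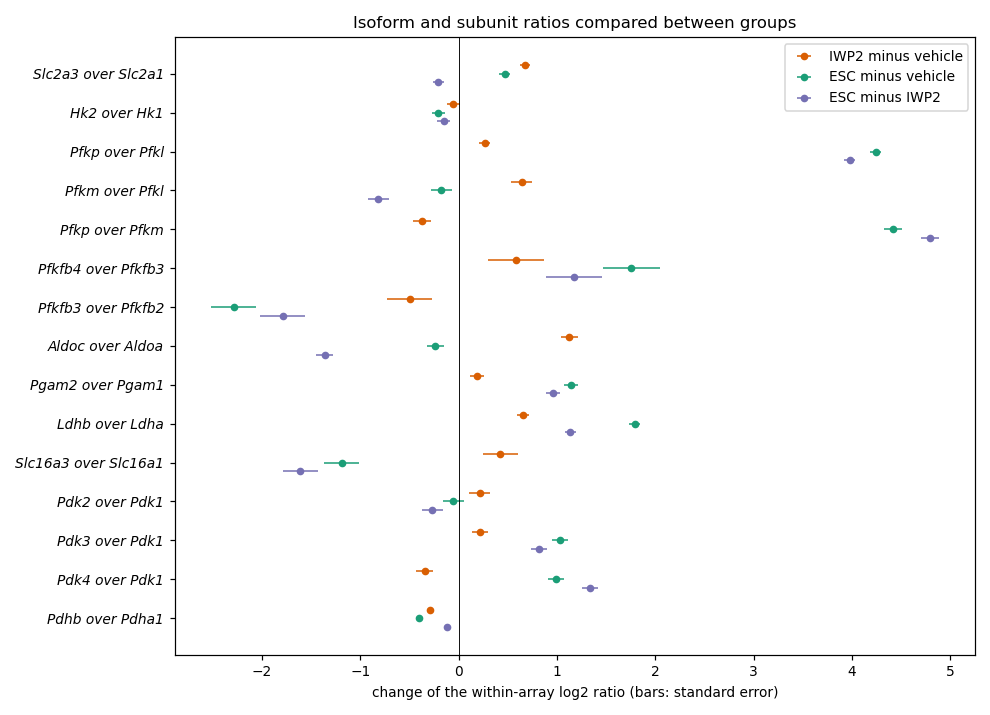
Change of the within-array log2 ratio of 15 isoform or subunit pairs between groups, with the standard error as bars. The points of Pfkp over Pfkl and Pfkp over Pfkm lie between 3.97 and 4.79 in both comparisons with ESCs, far from all other pairs.

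Neighbouring pathways were read from 6 further lists, the hypoxia list below included, which were also chosen with earlier results of these data known. Of all genes, 38.7% were higher and 27.9% lower in ESCs than in vehicle cells, and 16.6% rose and 16.9% fell with IWP2, and each list is read against these shares. Of 17 other glycolysis and lactate genes measured, 6 were higher (35.3%) and 4 lower (23.5%) in ESCs than in vehicle cells, both near those shares, among them Ldhc, the testis lactate dehydrogenase (1.44), Hk3 (0.52), and Bpgm, which makes 2,3-bisphosphoglycerate (-1.51). With IWP2, 3 rose (17.6%) and 4 fell (23.5%), with the transporter genes Slc2a4 (0.54) and Slc2a8 (0.39) rising. Of 7 gluconeogenesis genes, 5 were higher (71.4%) and 2 lower (28.6%) in ESCs than in vehicle cells. The fructose bisphosphatase genes Fbp1 (2.26) and Fbp2 (1.94), whose enzymes reverse the phosphofructokinase step, were higher. Their vehicle means of 3.76 and 4.76 lay below the median of all probe sets, that of Fbp1 near the lower quartile, so these sizes are uncertain. Pck2 (-0.21) and G6pc3 (-0.27) were lower. None of the 7 was called by limma with IWP2, the closest being G6pc (0.27, adjusted p = 0.0618) and Pck1 (0.18, adjusted p = 0.0805).

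Of 6 other pyruvate entry genes, 2 were higher in ESCs than in vehicle cells (33.3%), Mpc1 and Pdhx, the structural component of the dehydrogenase complex (0.50), and 4 were not called. With IWP2 the phosphatase gene Pdp2, whose product reactivates the complex, rose (0.53) and Mpc1 fell. Of 13 citric acid cycle genes, 7 were higher (53.8%) and 2 lower (15.4%) in ESCs than in vehicle cells. Idh3g (1.27, X-linked) and Idh2 (0.85), both isocitrate dehydrogenase genes, were among the higher, and Suclg2 (-0.70) and Dlst (-0.33) were the lower. With IWP2, 4 rose (30.8%), among them Suclg2 (0.34) and the citrate synthase gene Cs (0.23), and 0 fell. Of 7 pentose phosphate genes, 3 were higher in ESCs than in vehicle cells (42.9%), with Rpe (0.54) and Rpia (0.41), and 2 lower (28.6%), Pgls (-0.37) and H6pd (-0.30), both near the shares of all genes. With IWP2 Rpia rose (0.21) and Pgd fell (-0.43).

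Several glycolytic genes are known targets of hypoxia factors, so genes of the hypoxia response outside glycolysis were counted. Of 18 measured, 13 were lower in ESCs than in vehicle cells (72.2%, against 27.9% of all genes) and 4 higher (22.2%, against 38.7%), with a median of -0.50 against 0.12. P4ha1, a collagen prolyl hydroxylase gene, was at 7.39 in ESCs and 8.70 in vehicle cells (-1.31 ± 0.078), and the oxygen-sensor gene Egln3 at 6.43 and 8.70 (-2.27 ± 0.169). Epas1, which encodes HIF2 alpha, was higher in ESCs (1.67 ± 0.064), as was the demethylase gene Kdm3a (0.77). Against IWP2 cells, 12 were lower in ESCs (66.7%, against 26.9%) and 3 higher (16.7%, against 35.2%), with a median of -0.87 against 0.10. With IWP2, 5 rose (27.8%, against 16.6%), among them Arnt, the partner of the hypoxia factors (1.17), and the oxidoreductase gene Ero1a (0.97), and 3 fell (16.7%, against 16.9%), among them Epas1 (-1.97) and Adm (-0.86).

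**Figure D4:**
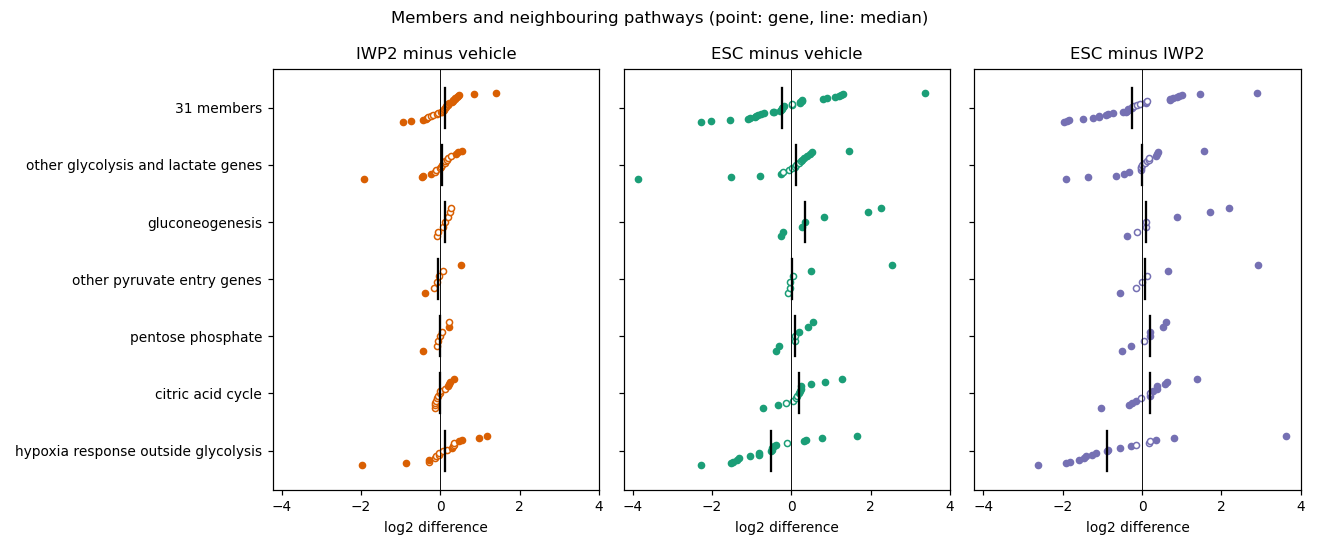
Log2 differences of the 31 members and of 6 neighbouring gene lists in the 3 comparisons, with one point per gene (filled where called at an adjusted p under 0.05) and the list median as a black line. The hypoxia list has its median at -0.50 for ESC minus vehicle and -0.87 for ESC minus IWP2, and at 0.12 for IWP2 minus vehicle.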

How the data were processed

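Total RNA was measured on Affymetrix mouse arrays. The authors deposited log2 values for 45101 probe sets, and the submitters' processing notes name RMA (background correction, quantile normalization, summary per probe set) and limma, without versions. RMA makes the arrays' distributions nearly equal, which hides any difference in the total RNA of a cell. Summarised values carry no detection calls or read depth, and 3 arrays per group limit the precision.

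Probe sets with 1 symbol in the platform annotation (34958, control probe sets for Gapdh included) gave 18194 genes, each read from its brightest probe set. Group means were fitted to all 9 arrays with limma 3.58.1 in R 4.3.3 (lmFit, eBayes), two-sided, with Benjamini-Hochberg adjustment over all genes. A gene is called where this adjusted p is under 0.05. The labels do not say what arrays of the same replicate number share, so the main fit did not pair them. Deviations of same-numbered arrays correlated at -0.06 to 0.05, and those of differently numbered arrays at -0.10 to 0.07. Genes given array by array were called, differed by at least 1 log2 unit and exceeded the median of all probe sets (5.24) in 1 comparison or more, or form an isoform pair with such a gene. Of each other list, up to 2 called genes with the smallest p per direction were named. The members and lists were chosen with earlier results of these data known. Scan dates were not used here. Alternatives are given in the closing section.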

Additional observations from a re-analysis of the deposited data

How the results depend on the processing

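The counts of called members stayed within 1.5 times the reported ones under 12 other settings and on leaving out each array. Leaving out single arrays gave 10 to 12 higher and 4 to 6 lower members for IWP2 minus vehicle, 9 to 11 higher and 16 to 17 lower for ESC minus vehicle, and 8 higher with 17 to 18 lower for ESC minus IWP2. With the replicate number as a block the counts were 11 and 5, 11 and 17, and 8 and 17 in the same order, and the block ended the call of Aldoa for ESC minus vehicle (-0.19, limma adjusted p = 0.0522) and no other member's. Whether same-numbered samples were paired is not stated in the labels. Of the recomputed member differences, 1850 kept direction and side of the threshold, 58 lost a call, 31 gained one and 2 reversed. Both reversals were Pdk1 as the mean of its probe sets, -0.30 for ESC minus vehicle and -0.58 for ESC minus IWP2, where 1 of 4 probe sets differed from the others. The changes of isoform ratios depended more on these choices. Of those recomputed, 612 were counted as the same and 60 as moved. Of the 45 changes, 31 moved with the mean of probe sets and 17 with an offset of 32. Signals near the floor limit Slc16a3, Pdk4, Eno2 and Pdk2. Aldoa has only probe sets that can bind related transcripts, so leaving that type out gave no value for it.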
